A study of Mus musculus with 12 samples.

Results

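The CCN family is a small set of secreted matricellular proteins, which sit in the extracellular matrix without building it and act on cells through integrins, heparan sulphate and other receptors. The genes described are Ccn1, Ccn2, Ccn3, Ccn4 and Ccn5, chosen by symbol from the table of counts: 5 of its 55401 genes. All 5 passed the filter on low counts, which kept 17699 genes. Ccn6, the remaining gene of the family, was not among the chosen genes. It had too few reads to pass that filter and is not described further.

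The study sequenced polyadenylated RNA of 12 left ventricle samples of mice, 3 in each of 4 groups. The mice were wild type (WT) or carried Prkca T497A, an alanine in place of a phosphorylated threonine of protein kinase C alpha. The surgery was transverse aortic constriction (TAC), a narrowing of the aortic arch set with a 27-gauge needle that makes the ventricle work against raised pressure, or a sham. Surgery was at 10 weeks of age and tissue was taken at 11 weeks, 1 week later. The labels name no strain or sex, and they do not say whether each library is a separate animal, so p-values measure the spread between these samples. The labels give the tissue as left ventricle and the cell type as cardiomyocyte, yet markers of fibroblasts, endothelium and macrophages were present in every library, so the values are those of tissue. In such bulk samples fewer cells of a type and less RNA per cell cannot be told apart.

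The T497A sham libraries stood apart in a way that touches every comparison with that group. Xist, an RNA made from the silent X chromosome of females, lay between 160 and 215 CPM (counts scaled to library size with TMM factors) there and between 0.315 and 0.751 CPM in the other 9 libraries. Ddx3y, a Y-linked gene, lay between 0.0999 and 0.396 CPM in T497A sham and between 73.6 and 108 CPM elsewhere, so sex and group cannot be told apart for that group. Between the sham groups 104 autosomal transcripts differed at least 4-fold, and after TAC the genotype difference had the opposite sign for 95 of them. Of these genes 33 lie on chromosome 11, as Prkca does. Placing each TAC mean between wild-type sham (0) and T497A sham (1) gave a median of 0.685 for the wild-type label and 0.0321 for the T497A label, so at these genes wild-type TAC lay nearer to T497A sham and T497A TAC nearer to wild-type sham. Whether the genotype labels are crossed within a surgery was not tested. If they were, the genotype directions there and the interaction would turn or change. Each comparison of TAC with sham under the same label, wild type included, would then compare different genotypes. Prkca itself lay between 31.1 and 35.7 CPM in T497A sham and between 42.2 and 51.0 CPM in the other libraries. Counts per gene cannot show a point mutation, and a direction by genotype is therefore a direction between labels. For the CCN genes, results that rest on the T497A sham group are set beside comparisons without it. For most of the gene lists and markers below they are not. Total counts were 58932759 to 72594085 per library. TMM factors were 1.13 to 1.21 in wild-type TAC and 0.910 to 0.988 in the other groups, and mitochondrial transcripts took 9.67 to 14.7% of the counts there against 16.0 to 20.99% elsewhere. Without these factors the median gene moved by 0.33 on the log2 scale in the wild-type TAC comparison.

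As background, CCN proteins share an arrangement of modules found in growth factor binding and matrix proteins, and Ccn5 lacks the C-terminal cystine knot module that the others carry. Ccn1 and Ccn2 are textbook immediate targets of the mechanosensitive cofactors YAP and TAZ, which bind DNA through TEAD factors, and Ccn2 is also a classic target of TGF-beta. In the heart Ccn2 is known as a marker and amplifier of fibrosis, and Ccn5 for opposing effects of Ccn2.

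The promoter of Ccn1 is shown because it carries the letters of the TEAD motif next to a gene used as a readout of YAP and TAZ. RefSeq's promoter table on GRCm38.p6 matched 1 of the 5 members, Ccn1. The 250 bases before its start site lie at chr3:145649986-145650235 on the minus strand, and capitals mark CATTCC, the TEAD letters, which begin 103 bases before the start, and TATAAA, which begins 25 bases before it.
Ccn1: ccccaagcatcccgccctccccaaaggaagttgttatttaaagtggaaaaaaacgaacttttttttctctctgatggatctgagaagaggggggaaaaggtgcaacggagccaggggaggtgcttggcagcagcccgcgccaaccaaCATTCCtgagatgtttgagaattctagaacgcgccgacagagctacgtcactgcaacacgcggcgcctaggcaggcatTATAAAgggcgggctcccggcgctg
Searched on both strands over 300 bases, CATTCC occurs in 14.7% of 32851 promoters and TATAAA in 13.6%, and in Ccn1 these matches do not overlap. The SMAD letters CAGAC, found in 49.6% of promoters, begin at base 4 of Ccn1, counting the start site as base 1. The AP-1 letters TGANTCA (7.81% of promoters) and the CArG box of SRF (1.63%) had no match in its window. A match is a run of letters and not evidence of binding.

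Ccn1, an angiogenic and cell-adhesive protein bound by integrins, was higher after TAC under both genotype labels, by less than 2-fold. The gene (ENSMUSG00000028195.4; GRCm38 chromosome 3, 145646976 to 145649981, minus strand) stood at 55.7, 63.9 and 64.5 CPM in wild-type sham and at 95.9, 114 and 86.6 CPM in wild-type TAC. Under the T497A label it stood at 41.4, 48.8 and 57.3 CPM after sham and at 83.9, 73.0 and 63.6 CPM after TAC. TAC libraries lay above the sham libraries of the same label without overlap. The wild-type and T497A sham groups overlapped, as did wild-type sham and T497A TAC, whereas wild-type TAC lay above every other library.

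Ccn2, formerly connective tissue growth factor, was the most abundant member after TAC, per length as well as in CPM. The gene (ENSMUSG00000019997.11; chromosome 10, 24595442 to 24598683, plus strand) stood at 55.4, 67.2 and 59.4 CPM in wild-type sham and at 376, 603 and 306 CPM in wild-type TAC. The T497A libraries had 171, 79.6 and 122 CPM after sham and 168, 174 and 151 CPM after TAC. Every T497A library, sham or TAC, lay above wild-type sham and below wild-type TAC, and the 2 T497A groups overlapped each other. An antisense gene, Gm15270, overlaps Ccn2, and the strand setting of the counting is not given in the sources used here. Gm15270 itself had 59 to 156 counts per library, against 3245 to 45971 for Ccn2.

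Ccn3, reported in several tissues to act against matrix production, was low, and most of its groups overlapped. The gene (ENSMUSG00000037362.8; chromosome 15, 54745702 to 54754039, plus strand) stood at 5.29, 4.48 and 3.75 CPM in wild-type sham and at 8.45, 11.99 and 4.78 CPM in wild-type TAC. In T497A the values were 6.60, 5.32 and 8.17 CPM after sham and 6.06, 4.52 and 4.03 CPM after TAC. Neighbouring groups overlapped at every step of its order by mean, from wild-type sham through T497A TAC and T497A sham to wild-type TAC, but the sham groups, which are not neighbours in it, did not overlap each other.

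Ccn4, a Wnt-induced protein of fibroblasts and bone-forming cells, was the lowest member per length after sham and was high only in wild-type TAC. The gene (ENSMUSG00000005124.10; chromosome 15, 66891320 to 66923201, plus strand) stood at 2.44, 1.98 and 1.69 CPM in wild-type sham and at 23.9, 42.3 and 17.4 CPM in wild-type TAC. T497A libraries held 2.32, 5.30 and 3.88 CPM after sham and 4.92, 5.03 and 2.79 CPM after TAC. The groups other than wild-type TAC overlapped their neighbours in level.

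Ccn5, the member without the C-terminal module, separated all 4 groups. The gene (ENSMUSG00000027656.7; chromosome 2, 163820861 to 163833146, plus strand) stood at 6.86, 8.35 and 7.24 CPM in wild-type sham and at 47.5, 75.7 and 37.9 CPM in wild-type TAC. T497A libraries held 1.18, 4.48 and 5.16 CPM after sham and 18.8, 17.3 and 12.6 CPM after TAC. From lowest to highest the order was T497A sham, wild-type sham, T497A TAC and wild-type TAC, with no overlap between neighbours. T497A sham 1 was the lowest library, at 72 counts. Wild-type TAC 2 was the highest of the 12 libraries for every member.

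**Figure D1:**
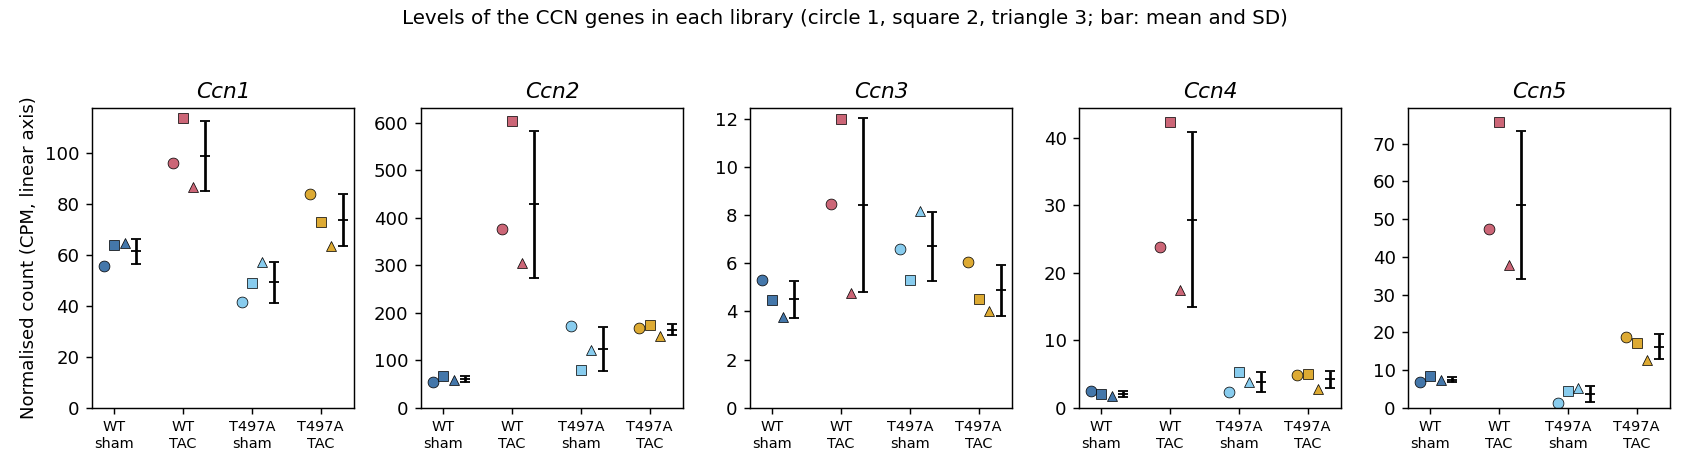
Normalised counts (CPM, linear axes from 0) of the 5 CCN genes in each of the 12 libraries, by group; symbols mark libraries 1 to 3 and bars show the mean and SD of 3. Wild-type TAC reaches 306 to 603 CPM for Ccn2 and 17.4 to 42.3 CPM for Ccn4, above all other libraries, while for Ccn3 wild-type TAC, at 4.78 to 11.99 CPM, overlaps every other group.

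The wild-type comparison asks how pressure overload changes the ventricle. All 5 members were called higher after TAC, in a comparison in which 49.9% of all genes tested were called (edgeR quasi-likelihood test, threshold 0.05 on p adjusted by Benjamini-Hochberg over the 17699 genes, as in every comparison here). Their median log2 fold change was 2.82, against 0.03 over all genes. Ccn4 rose most, from 2.04 ± 0.377 to 27.9 ± 12.9 CPM (SD, n = 3), 13.7-fold (log2 fold change 3.77 ± 0.43 SE, adjusted p = 5.8e-05). Ccn5 rose 7.18-fold (2.84 ± 0.46, adjusted p = 0.00076) and Ccn2 rose 7.06-fold, from 60.6 ± 6.02 to 428 ± 155 CPM (2.82 ± 0.32, adjusted p = 8.5e-05). Ccn1 rose 1.61-fold (0.69 ± 0.14, adjusted p = 0.0012). Ccn3 rose by 0.90 ± 0.30 (adjusted p = 0.024) although its groups overlapped, and this call was lost in 6 of 23 alternatives (adjusted p 0.00056 to 0.11 over them). Without wild-type TAC 2 the change of Ccn3 was 0.55, with an adjusted p of 0.11, and the call was also lost without wild-type TAC 1 (0.054), wild-type sham 2 (0.068) or wild-type sham 3 (0.089).

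Under the T497A label TAC raised Ccn5 and Ccn1, and no change was called for the other members. With 2 of 5 members called, the background was 24.4% of all genes. Ccn5 stood at 3.604 ± 2.13 CPM after sham and 16.2 ± 3.24 CPM after TAC (SD, n = 3; 2.17 ± 0.47 SE on the log2 scale, adjusted p = 0.010), a call lost when only these groups entered the fit (0.054). Ccn1 went from 49.2 ± 7.95 to 73.5 ± 10.1 CPM (0.58 ± 0.14, adjusted p = 0.0095). The estimates for Ccn2 (0.41 ± 0.30, adjusted p = 0.38), Ccn3 (-0.46 ± 0.29, adjusted p = 0.29) and Ccn4 (0.14 ± 0.40, adjusted p = 0.84) were within 2 SE of 0. Their libraries overlapped between sham and TAC. The members' median was 0.41, against 0.00 over all genes.

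The interaction tests whether the response to TAC differs between the labels. The responses of Ccn4 (-3.63 ± 0.58, adjusted p = 0.0015), Ccn2 (-2.42 ± 0.43, adjusted p = 0.0034) and Ccn3 (-1.36 ± 0.42, adjusted p = 0.030) were smaller in T497A than in wild type on the log2 scale. These are 3 of 5 members, against 29.5% of all genes called in either direction. The call of Ccn3 was lost in 9 of 21 alternatives (adjusted p 0.0011 to 0.10): without filter (0.10) and without wild-type sham 2 (0.064) or 3 (0.072), wild-type TAC 1 (0.055) or 2 (0.051), T497A sham 1 (0.054) or 3 (0.073), or T497A TAC 2 (0.069) or 3 (0.074). For Ccn5 (-0.68 ± 0.63, adjusted p = 0.48) and Ccn1 (-0.11 ± 0.19, adjusted p = 0.73) no difference in response was called. The error of the Ccn5 estimate is nearly as large as the estimate, which limits what can be said of it. The members' median was -1.36, against -0.01 over all genes.

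After sham surgery 0 of 5 members were called between the labels, while 5.79% of all genes were. In the edgeR test 2 members had an unadjusted p under 0.05, Ccn2 at 0.0086 and Ccn1 at 0.038, as did 3495 of all 17699 genes. With limma-voom 0 members were called. Ccn2 stood higher in T497A without overlap (1.03 ± 0.31, adjusted p = 0.094). It was called with the DESeq2 test (0.015), with robust estimation off (0.032) and without T497A sham 2 (0.033), and its adjusted p ran from 0.015 to 0.24 over 22 alternatives. Ccn5 stood lower, also without overlap (-1.05 ± 0.47, adjusted p = 0.26). Ccn3 stood higher, narrowly without overlap (0.57 ± 0.30, adjusted p = 0.32). For Ccn4 the estimate was 0.91 ± 0.42 (adjusted p = 0.27) and for Ccn1 -0.32 ± 0.14 (0.22), with overlap. The members' median was 0.57, against 0.00 over all genes. These values compare libraries that also differ in Xist and Ddx3y, and the part of that difference was not tested.

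After TAC, which leaves out the T497A sham group, 4 of 5 members were lower under the T497A label, against 35.7% of all genes called in either direction. Ccn4 differed most, with 4.25 ± 1.26 CPM in T497A against 27.9 ± 12.9 CPM in wild type (SD, n = 3; log2 fold change -2.72 ± 0.40 SE, adjusted p = 0.00064). Ccn5 followed (16.2 ± 3.24 against 53.7 ± 19.6 CPM; -1.73 ± 0.43, adjusted p = 0.013), then Ccn2 (164 ± 11.7 against 428 ± 155 CPM; -1.38 ± 0.31, adjusted p = 0.0073) and Ccn1 (-0.43 ± 0.14, adjusted p = 0.029). For Ccn3 the value was -0.79 ± 0.29 (adjusted p = 0.056). The median of the members was -1.38, against -0.02 over all genes. Ccn5 lost its call without wild-type TAC 2 (0.052) or T497A TAC 3 (0.054). Ccn1 lost it without filter (0.093) and without wild-type TAC 1 (0.055) or 2 (0.14) or T497A TAC 2 (0.087) or 3 (0.11), and Ccn3 gained it in 7 of 23 alternatives (0.0019 to 0.24 over them).

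Because the labels of the sham groups bear on the directions, TAC was also set against the sham group of the other label. Between T497A TAC and wild-type sham 1 of 5 members was called, Ccn2 (1.44 ± 0.31, adjusted p = 0.022), with 10.0% of all genes called. Leaving out any of the 6 libraries of these groups ended that call (adjusted p 0.052 to 0.087). Ccn4 (1.06 ± 0.42, adjusted p = 0.15) and Ccn5 (1.11 ± 0.44, adjusted p = 0.16) stood higher in T497A TAC without overlap but were not called. Both were called when only these 2 groups entered the fit (0.0092 for Ccn4 and 0.00065 for Ccn5), and Ccn5 also without the T497A sham group (0.041), without T497A sham 1 (0.030) and with limma-voom (0.035). Ccn1 differed by 0.26 (adjusted p = 0.26) and Ccn3 by 0.11 (adjusted p = 0.87). The median was 1.06, against 0.00 over all genes. Between wild-type TAC and T497A sham 4 of 5 members were called, with 50.2% of all genes called: Ccn5 (3.89 ± 0.49, adjusted p = 0.00015), Ccn4 (2.86 ± 0.41, adjusted p = 0.00024), Ccn2 (1.79 ± 0.31, adjusted p = 0.0011) and Ccn1 (1.01 ± 0.14, adjusted p = 6.8e-05). Ccn3 was not (0.33 ± 0.29, adjusted p = 0.38). Ccn1, Ccn2, Ccn4 and Ccn5 were thus called higher in wild-type TAC against either sham group. These comparisons share their groups with the ones above, and no alternatives were run for wild-type TAC against T497A sham.

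**Figure D2:**
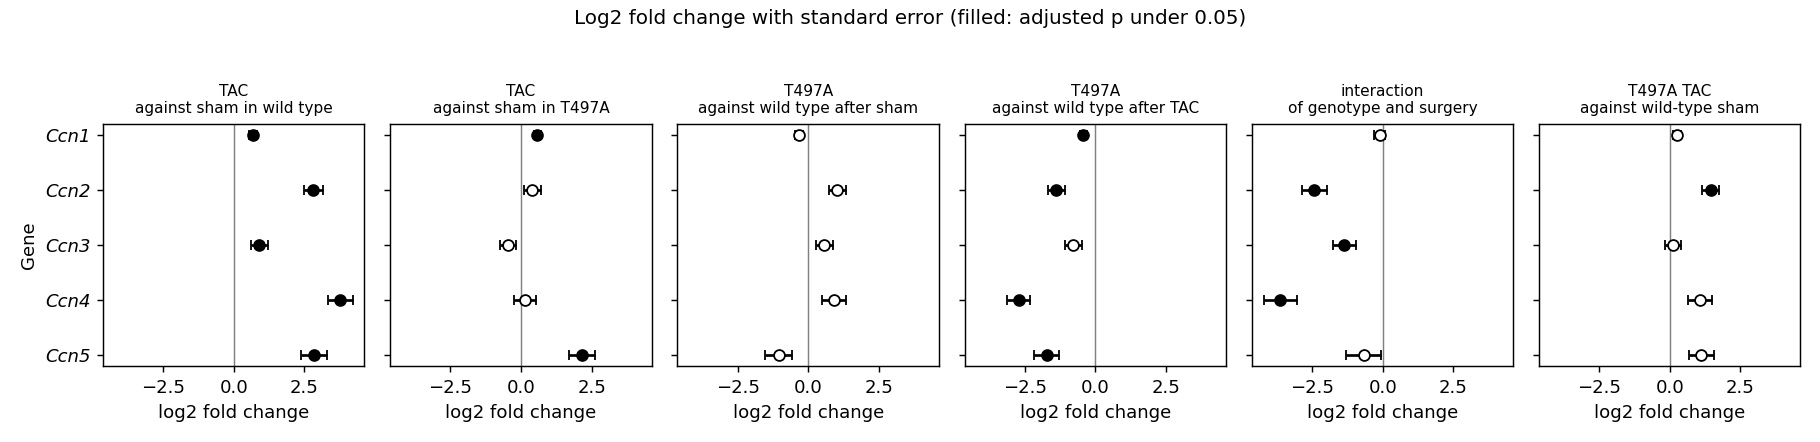
Log2 fold changes of the 5 CCN genes in 6 comparisons, with bars of 1 standard error; filled points passed an adjusted p of 0.05. Ccn4 ranges from 3.77 for TAC in wild type to -3.63 for the interaction, while Ccn1 stays between -0.43 and 0.69 throughout.

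Dividing by exon length (counts per kb of exon) allows the members to be compared with each other. In wild-type sham Ccn1 led with 30.4 ± 2.43 CPM per kb, followed by Ccn2 with 21.2 ± 2.10, Ccn5 with 3.89, Ccn3 with 1.57 and Ccn4 with 0.366. In the other groups Ccn2 led, with 150 ± 54.3 CPM per kb in wild-type TAC, 43.4 ± 16.0 in T497A sham and 57.5 ± 4.08 in T497A TAC. Ccn1 stood at 48.9, 24.4 and 36.4 CPM per kb in these groups. Ccn4 passed Ccn3 in wild-type TAC (5.01 against 2.93 CPM per kb) and was below it in the other groups. Lengths are those of all annotated exons, and counts of a gene that uses only some of them are then understated.

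As a share of the family's counts per kb, which does not depend on library scaling, Ccn2 went from 36.9 ± 1.28% in wild-type sham to 63.3 ± 2.59% in wild-type TAC (SD, n = 3). Ccn1 went from 53.0 ± 1.83 to 21.6 ± 3.54%, although its own level rose. Ccn5 went from 6.76 ± 0.296 to 11.8 ± 0.536%. Both T497A groups lay between these for Ccn2 on average, with 58.5 ± 11.8% after sham and 55.0 ± 2.63% after TAC. T497A sham 1 stood apart within its group, with 71.5% Ccn2 and 0.730% Ccn5, against 48.7 and 55.2% Ccn2 in the other T497A sham libraries. No test was made of the shares.

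**Figure D3:**
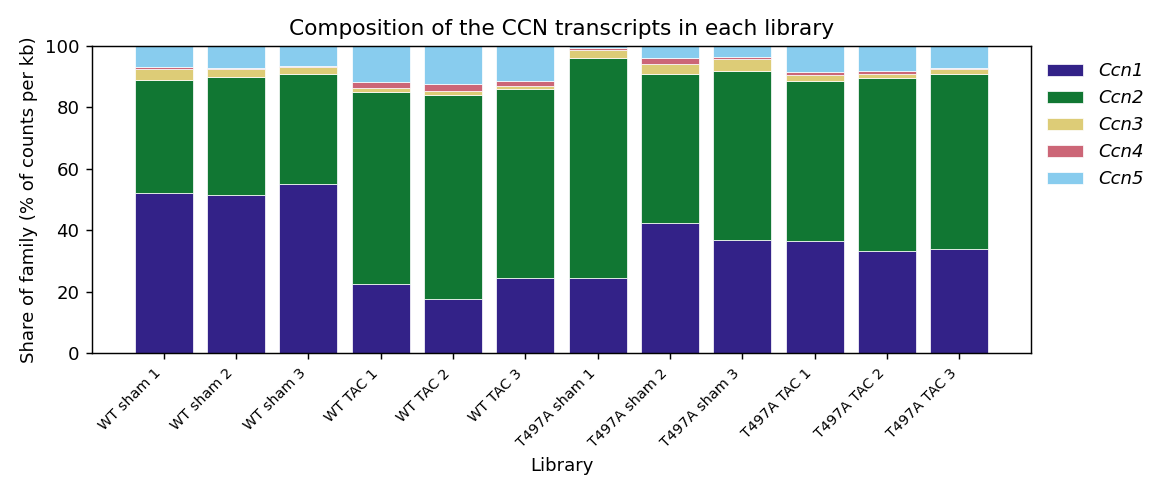
Share of each CCN gene in the family's counts per kb of exon (%), stacked to 100% for each of the 12 libraries. Ccn1 fills 51.6 to 55.0% of the wild-type sham bars and 17.7 to 24.6% of the wild-type TAC bars, and T497A sham 1 holds 0.730% Ccn5.

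Ccn5 and Ccn2 changed by nearly the same factor in wild type. Ccn2 per Ccn5, in counts per kb, was 5.43, 5.41 and 5.52 in wild-type sham and 5.32, 5.36 and 5.43 in wild-type TAC. The ratio was higher under the T497A label: 98.0, 11.95 and 15.9 after sham and 6.03, 6.76 and 8.10 after TAC. On the log2 scale, Ccn5 over Ccn2 differed by 0.02 between wild-type TAC and sham (two-sided exact permutation test, p = 0.3, adjusted p = 0.3 over 5 comparisons). The other comparisons each reached the smallest p that 3 against 3 allows, 0.1 (adjusted p = 0.125, exact), and so none passed 0.05. Their differences were 1.94 for TAC against sham in T497A, -2.28 for T497A against wild type after sham, -0.36 after TAC, and -0.34 for T497A TAC against wild-type sham. In each of these the groups did not overlap.

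CCN proteins act through integrins and co-receptors, and in wild type 10 of 14 genes for receptors and binding partners rose with TAC and 0 fell (median 0.64, against 0.03 over all genes, of which 49.9% were called in either direction). Lrp1, the scavenger receptor that takes up CCN2, rose from 226 ± 7.45 to 447 ± 55.4 CPM (SD, n = 3; 0.98 ± 0.07). Itgb3, the partner of the alpha-v chain, rose by 1.89 ± 0.26 and Itgav, that chain itself, by 0.64 ± 0.10. Itgb1 (0.64 ± 0.08) and Itga6 (0.64 ± 0.07), which pair in a receptor for CCN1 and CCN2, rose too, as did Itgam (1.53 ± 0.21) and Itgb2, the chains of a leukocyte receptor for CCN1. Itga5, the fibronectin receptor chain, rose by 0.82 ± 0.11. Among those not called were Sdc4, a heparan sulphate proteoglycan (-0.09 ± 0.14), the Wnt co-receptor Lrp6 (0.04 ± 0.06) and Notch1 (0.09 ± 0.11), which binds CCN3.

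Under the T497A label 4 of these 14 receptor genes rose with TAC and 0 fell (median 0.07, against 0.00 over all genes), with 24.4% of all genes called. They were Itga6 (1.07 ± 0.07), Sdc4 (0.67 ± 0.14), Itga5 (0.62 ± 0.11) and Itgav (0.29 ± 0.10). Lrp1 stood at 266 ± 2.52 CPM after sham and 270 ± 5.73 CPM after TAC (SD, n = 3; 0.02 ± 0.07, adjusted p = 0.89). The interaction was called for 8 of 14, against 29.5% of all genes. Among these 8, 6 responses were smaller in T497A, including those of Lrp1 (-0.96 ± 0.10) and Itgb3 (-2.20 ± 0.36). The 2 larger responses were those of Itga6 (0.43 ± 0.10) and Sdc4 (0.76 ± 0.20). For both, the mean in T497A sham lay below that in wild-type sham (57.3 against 76.0 CPM for Itga6 and 18.6 against 26.6 CPM for Sdc4). Without TMM factors Itga6 and Sdc4 were not called higher and 10 responses were smaller. After TAC, 8 of 14 were lower in T497A and 0 higher, with 35.7% of all genes called. After sham 1 was lower, Itga6 (-0.41 ± 0.07), with 5.79% of all genes called.

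Upstream of Ccn1 and Ccn2, the Hippo kinases restrain YAP and TAZ. In wild type 10 of 16 genes of this pathway rose with TAC and 1 fell (median 0.32; 49.9% of all genes were called), both for TAZ itself (Wwtr1, 0.52 ± 0.05) and Tead2 (1.21 ± 0.15) and for the restraining parts Mob1a (0.64 ± 0.08), Stk3 (0.55 ± 0.09), Sav1 (0.37 ± 0.07) and Mob1b (0.44 ± 0.09). Yap1 was not called (-0.08 ± 0.05). Under the T497A label 5 rose and 2 fell, against 24.4% of all genes called. The former include Wwtr1 (0.39 ± 0.05) and the YAP-binding scaffold Amot (1.11 ± 0.09), and the latter Yap1 (-0.20 ± 0.05). Interaction calls were 1 larger response in T497A, Amot (0.84 ± 0.13), and 3 smaller, against 29.5% of all genes called. The mean of Amot was 22.9 CPM in wild-type sham and 12.8 CPM in T497A sham. After TAC it was 27.5 CPM in wild type and 27.7 CPM in T497A. Without TMM factors 15 of 16 rose and 0 fell in wild type, so the counts for this list move with the scaling.

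Other YAP and TEAD targets did not follow a single direction. Of 20 such genes (CCN members left out), 9 rose and 6 fell with TAC in wild type (median 0.17), and 3 rose and 4 fell under the T497A label (median -0.01). Over all genes 49.9 and 24.4% were called. Without TMM factors these were 13 and 2 in wild type and 3 and 2 in T497A. Ankrd1, a stretch-responsive cofactor of muscle, rose under both labels (1.70 ± 0.10 in wild type and 2.35 ± 0.10 in T497A, interaction 0.65 ± 0.14, adjusted p = 0.0032). Its mean was 1575 CPM in wild-type sham and 867 CPM in T497A sham, and after TAC 5126 CPM in wild type and 4416 CPM in T497A. The receptor kinase Axl rose in wild type (0.85 ± 0.07) and fell in T497A (-0.22 ± 0.07). Its mean was 109 CPM in wild-type sham, 146 CPM in T497A sham and 126 CPM in T497A TAC, so T497A TAC lay above wild-type sham. Myof, a membrane repair protein, rose by 1.65 ± 0.17 in wild type, with 0.32 ± 0.16 in T497A (adjusted p = 0.18). Ccdc80, a matrix protein, rose by 1.53 ± 0.16 in wild type, with 0.04 ± 0.16 in T497A (adjusted p = 0.89). Gadd45a, a growth arrest gene, fell in wild type (-1.09 ± 0.16) and rose in T497A (0.74 ± 0.15). Its mean was 15.0 CPM in wild-type sham, 10.6 CPM in T497A sham and 17.7 CPM in T497A TAC.

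TGF-beta signalling, the classic inducer of Ccn2, was represented by 15 genes, of which 11 rose and 2 fell with TAC in wild type (median 0.74), and 2 rose and 1 fell under the T497A label (median 0.16). The shares called over all genes were 49.9 and 24.4%, so the T497A count is near that of all genes. The ligand Tgfb1 rose under both labels (0.74 ± 0.08 and 0.85 ± 0.08; interaction 0.11 ± 0.11, adjusted p = 0.53). Tgfb2, which also stands in the list of YAP targets, rose by 1.93 ± 0.13 in wild type and 0.84 ± 0.12 in T497A (interaction -1.09 ± 0.17, adjusted p = 0.00046). The receptors Tgfbr1 (0.94 ± 0.13) and Tgfbr2 (0.84 ± 0.09) rose in wild type, with 0.15 ± 0.13 and 0.23 ± 0.09 in T497A (adjusted p = 0.43 and 0.060). Ski, a SMAD corepressor, rose in wild type (0.42 ± 0.06), and Ltbp1, a latency protein of TGF-beta, fell (-0.54 ± 0.06). Interaction calls were 1 larger and 7 smaller responses in T497A, against 29.5% of all genes called.

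**Figure D4:**
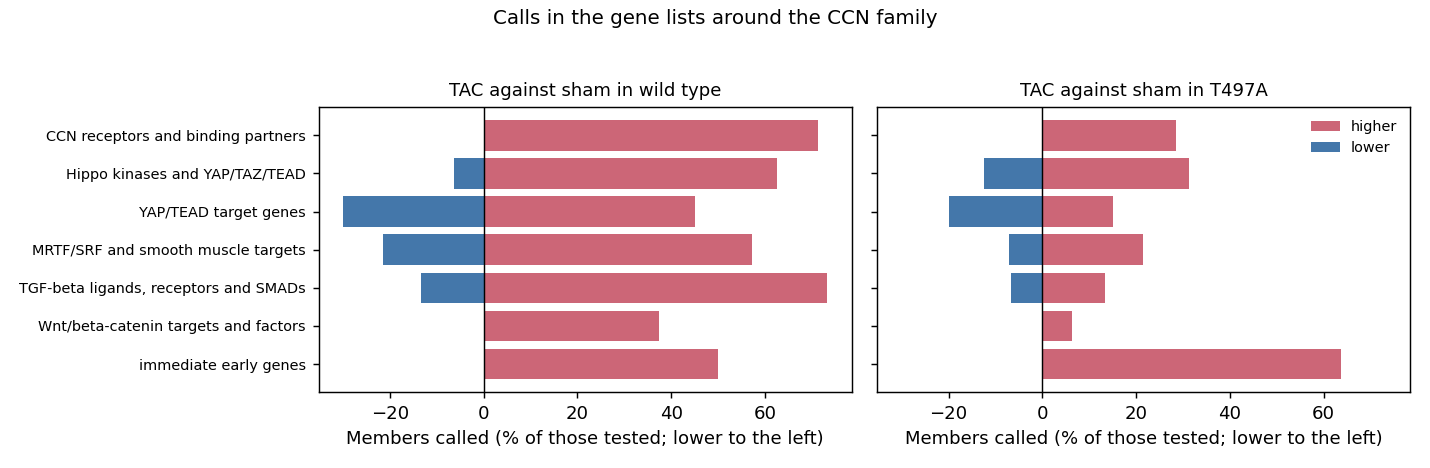
Members called with TAC in 7 gene lists, as a percentage of the members tested, with higher calls to the right and lower calls to the left, for wild type and T497A. Of 15 TGF-beta genes 11 rose in wild type and 2 in T497A, whereas immediate early genes rose in 11 and 14 of 22.

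Wnt signalling, for which Ccn4 and Ccn5 are named targets, was represented by 18 genes, 16 of them tested. With TAC 6 rose and 0 fell in wild type, and 1 rose and 0 fell under the T497A label. Both were smaller shares than the 49.9 and 24.4% of all genes called in either direction. Of all 17699 genes 4576 were called higher in wild type and 2290 in T497A. The receptors Fzd2 (2.17 ± 0.18) and Fzd1 (1.76 ± 0.16), the inhibitor Nkd2 (3.21 ± 0.31) and the secreted modulators Sfrp1 (3.00 ± 0.41) and Sfrp2 (3.69 ± 0.60) rose in wild type. Ctnnb1, the gene of beta-catenin, rose in wild type (0.13 ± 0.05) and T497A (0.25 ± 0.05). The standard feedback target Axin2 was not called (-0.32 ± 0.25 and -0.35 ± 0.25). The interaction was called for 6, all with smaller responses in T497A, against 29.5% of all genes called. Without TMM factors 11 rose in wild type, where 10357 of all 17699 genes were then called in either direction.

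Serum response factor and its MRTF cofactors also drive Ccn1 and Ccn2. Of 14 genes of this group 8 rose and 3 fell with TAC in wild type, where 49.9% of all genes were called. Under the T497A label 3 rose and 1 fell, with 24.4% of all genes called. Without TMM factors 10 rose and 1 fell in wild type, with 10357 of all 17699 genes called. Zyx (0.96 ± 0.13) and Flna (0.78 ± 0.11), which organise actin at adhesions, and Mrtfa (0.60 ± 0.10) rose in wild type, and Mrtfb (-0.34 ± 0.06) and Tpm1 (-0.53 ± 0.10) fell. Immediate early genes, among which Ccn1 is often counted, rose in 11 of 22 tested genes in wild type and in 14 of 22 in T497A, with 0 lower in either. Over all 17699 genes 49.9 and 24.4% were called in either direction. In wild type 4576 of them were called higher and 4255 lower, and in T497A 2290 and 2025. Egr1 rose by 0.78 ± 0.11 in wild type and 1.93 ± 0.11 in T497A (interaction 1.15 ± 0.16, adjusted p = 0.00013), and Jun by 0.47 ± 0.08 and 1.23 ± 0.08 (interaction 0.76 ± 0.11, adjusted p = 0.00026). In T497A sham Egr1 lay below wild-type sham (-1.13 ± 0.11, adjusted p = 6.6e-05), while for Jun the value was -0.27 ± 0.08 (adjusted p = 0.070). Interaction calls were 7 larger and 1 smaller of 22, against 29.5% of all genes. Without TMM factors they were 4 larger and 1 smaller, with 6869 of all 17699 genes called.

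Among the cell type markers, most of those of fibroblasts, macrophages and endothelium rose with TAC in wild type, and all 7 of cardiomyocytes fell. In the counts of markers that follow, 49.9% of all genes were called with TAC in wild type and 24.4% in T497A. Of 7 markers of activated fibroblasts 7 rose with TAC in wild type (median 4.71) and 4 in T497A (median 1.66), and 0 fell. Their summed level was 253 to 308 CPM in wild-type sham, 2811 to 6516 CPM in wild-type TAC, 279 to 380 CPM in T497A sham and 445 to 773 CPM in T497A TAC. Postn, a matrix protein of these cells, rose from 55.9 ± 12.5 to 1865 ± 724 CPM in wild type and from 54.6 ± 14.3 to 222 ± 92.2 CPM in T497A (SD, n = 3; interaction -3.04 ± 0.58, adjusted p = 0.0049). The summed level of 8 general fibroblast markers was 2355 to 2647, 3621 to 6215, 2616 to 3360 and 2113 to 2763 CPM in the same order of groups. Of these 8, 7 rose and 1 fell in wild type, and 2 rose and 1 fell in T497A. Wild-type TAC 2, the highest library for every CCN gene, was also the highest for both sums.

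For macrophages, 5 of 6 markers rose and 0 fell in wild type and 2 rose and 1 fell in T497A, and the sums were 157 to 183, 282 to 420, 188 to 215 and 209 to 222 CPM. All 7 cardiomyocyte markers fell with TAC in wild type, and 4 of 7 fell in T497A. Their sums were 55117 to 60689, 26381 to 31426, 59876 to 61527 and 47960 to 51439 CPM. Of 6 endothelial markers 5 rose in wild type and 4 in T497A, with 0 lower. Of 6 mural markers 3 rose and 1 fell in wild type and 3 rose in T497A. Of 6 atrial markers 1 rose and 1 fell in wild type and 4 fell in T497A. The atrial light chain Myl7 stood at 63.6, 74.4 and 261 CPM in T497A sham against 9.47 to 12.8 CPM in T497A TAC. In wild type Myl7 stood at 55.7, 84.5 and 6.64 CPM after sham and at 16.6 to 45.1 CPM after TAC. Of 5 epicardial markers 1 rose and 3 fell in wild type, and in T497A 1 rose. Of 4 valve markers 1 rose and 1 fell in wild type. Of 4 Schwann cell markers 1 rose and 1 fell in wild type and 1 fell in T497A. No marker of these lists was at 0 in all libraries of a group. The part of these cell types in the CCN values was not tested.

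**Figure D5:**
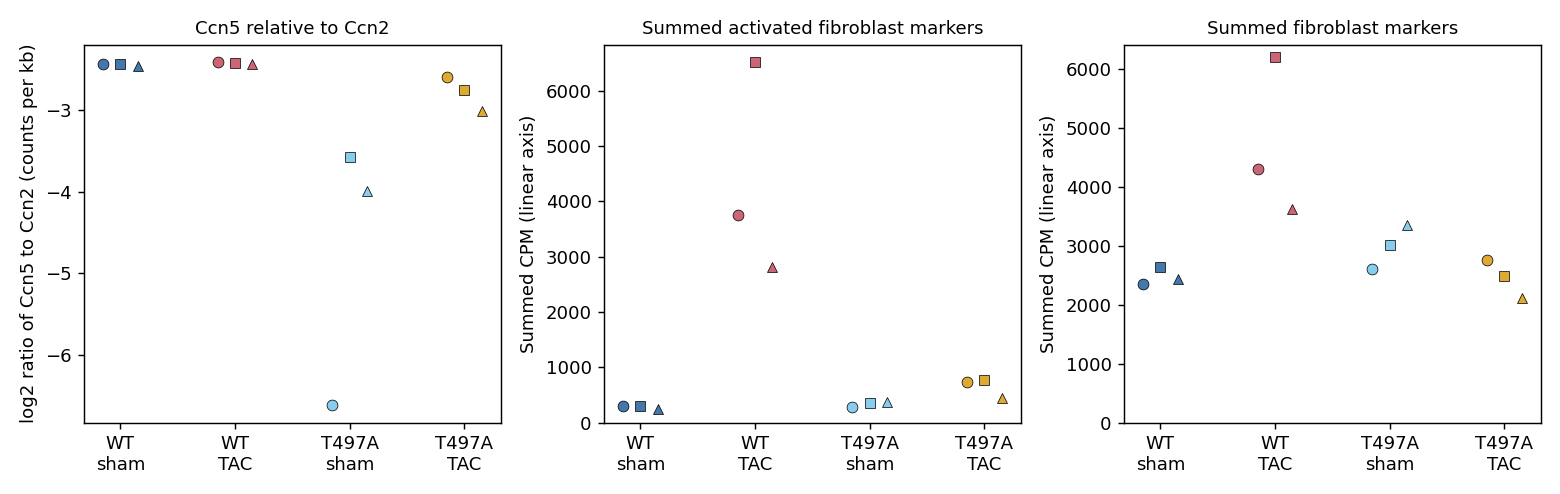
Left, log2 ratio of Ccn5 to Ccn2 in counts per kb; middle and right, summed CPM of activated and general fibroblast markers (linear axes from 0), for each library by group. The 6 wild-type libraries lie between -2.46 and -2.41 in the ratio while their activated fibroblast sums run from 253 to 6516 CPM, and T497A sham 1 lies at -6.61.

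Across the 12 libraries the members differed in how closely they tracked each other in log2 CPM, as a description over libraries that share 4 groups. Ccn1 and Ccn5 were closest (Pearson r = 0.975, and 0.827 with group means removed). Ccn2 and Ccn4 had r = 0.882, but 0.0434 with group means removed, and Ccn2 and Ccn5 had 0.684 and -0.196. Ccn4 and Ccn5 kept their likeness within groups (0.807 and 0.791). The values with group means removed pool unlike groups: in wild-type TAC the libraries had the same order for Ccn2, Ccn4 and Ccn5, while T497A sham 1 was the highest of its group for Ccn2 and the lowest for Ccn4 and Ccn5.

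The genes whose pattern over the 12 libraries was most like each member, among 12331 genes whose mean reached 1 CPM, were named by Pearson r alone. For Ccn1 they included Ddias (0.982), Cx3cr1 (0.977) and Plpp5 (0.975). For Ccn2 they were Dock10 (0.983), C1qa (0.969), Fam131b (0.968) and Hmox1 (0.968). For Ccn3 they were Atp6ap2 (0.907), Arih1 (0.905), Synpo (0.899) and Fbln7 (0.898), all lower than for any other member. For Ccn4 they were Fuca1 (0.990), Tbc1d8b (0.988), Selenof (0.988) and Vegfd (0.987). For Ccn5 they were Casc4 (0.986), Eml3 (0.986), Cx3cr1 (0.985) and Epb41l1 (0.982). Cx3cr1, a chemokine receptor gene of macrophages, stood in the lists of Ccn1 and Ccn5, and C1qa, a complement gene of macrophages, in that of Ccn2. None of the 5 CCN genes was among the 4 nearest genes of another. With many candidates and 4 groups, such correlations are high for many genes.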

How the data were processed

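The authors deposited raw counts per gene, whole numbers in 12 columns, all used. Per the labels, KAPA mRNA HyperPrep libraries of total RNA were read from a single end for 50 cycles. The submitters' processing notes name Trim Galore 0.6.4, STAR 2.7.3a, featureCounts (Subread 1.6.3) and limma 3.50.3, and the builds mm10 and GRCh38 without their roles. Neither the annotation release nor the strand setting is given there. Groups came from the labels.

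Filtering used filterByExpr, scaling TMM, and testing edgeR 4.0.16 in R 4.3.3 (quasi-likelihood F test, robust), with 1 mean for each of 4 groups over 12 libraries and Benjamini-Hochberg adjustment over 17699 genes at 0.05. The ± beside a log2 fold change is its standard error. Log2 CPM used a prior count of 2. Lengths and coordinates came from GENCODE M21 (GRCm38), which held 55141 of the 55401 IDs. The test was checked on simulated counts in which few genes changed, in wild-type TAC alone. These data differ from that setting, so the check does not cover broad changes or unequal scaling. Libraries within a group differed by a chi-square per degree of freedom of 10.6 to 149, so none copied another and their spread exceeds counting error.

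The members, the 17 lists (179 entries) and the comparisons were chosen with earlier results of these data known. Named are all members, up to 6 genes per list with the smallest p in wild type plus receptor and Hippo genes whose role is given, the 4 genes most like each member, and Xist, Ddx3y, Prkca and Myl7 as checks. Some genes that this rule names are not reported here. Alternatives were size factors or the test of DESeq2 1.42.0, limma-voom with weights (limma 3.58.1), no or a stricter filter (1 CPM in at least 6 libraries), robust estimation off, a replicate block, removal of 403 mitochondrial, haemoglobin and rRNA genes, a fit of the compared groups alone, no TMM factors, no T497A sham group, and leaving out each library. Wild-type TAC against T497A sham was added after the data had been seen, and none of these alternatives was run for it.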

Additional observations from a re-analysis of the deposited data

Results flagged for a closer look

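For 3 CCN genes the interaction test found a difference between the labels in the response to TAC. The log2 response in T497A minus that in wild type was -3.63 for Ccn4, -2.42 for Ccn2 and -1.36 for Ccn3. Leaving out the T497A sham group removes the interaction altogether, and in the comparison of the TAC groups alone Ccn4 (-2.72) and Ccn2 (-1.38) were still called lower in T497A, while Ccn3 (-0.79) was not.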

How the results depend on the processing

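Over 30 pairs of a member and a comparison there were 670 alternative values: 621 kept direction and call, 29 lost a call, 15 gained 1 and 5 changed sign. Ccn2 and Ccn4 kept their calls in every alternative run for TAC in wild type, for the genotypes after TAC and for the interaction, as did Ccn1 and Ccn5 for TAC in wild type and Ccn1 for TAC in T497A. The changes of sign were all uncalled and near 0: Ccn4 for TAC in T497A without T497A sham 1 (-0.12), Ccn1 for the interaction without wild-type TAC 2 (0.0086) or T497A sham 3 (0.020), and Ccn3 for T497A TAC against wild-type sham without wild-type sham 3 (-0.0035) or T497A TAC 1 (-0.074). With each library left out in turn these values ran from -0.12 to 0.45, from -0.21 to 0.020 and from -0.074 to 0.24.

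The number of members called was 1 for TAC in T497A with only the groups compared, and 1 after sham with the DESeq2 test or robust estimation off. For T497A TAC against wild-type sham it was 2 with limma-voom, 3 with only the groups compared and 2 without the T497A sham group. With each library left out it was 4 to 5 for TAC in wild type, 2 for TAC in T497A, 0 to 1 after sham, 2 to 5 after TAC, 2 to 3 for the interaction and 0 to 2 for T497A TAC against wild-type sham. The cause of these changes was not tested. Over all genes, 1024 were called after sham, 1697 with the DESeq2 test and 1032 with robust estimation off. For T497A TAC against wild-type sham 1773 were called, 2736 with DESeq2 and 3969 with limma-voom. There it was 2992 with only the groups compared and 1777 without the T497A sham group. With a library left out these were 505 to 1607 after sham and 623 to 2812 for T497A TAC against wild-type sham. For TAC in T497A they were 2840 to 5152, beside 4315 with all libraries and 4119 with only the groups compared. For TAC in wild type they were 7922 to 8994, beside 8831 with all libraries. After TAC they were 5266 to 6491 beside 6321, and for the interaction 4394 to 5283 beside 5218.

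Libraries of different groups share numbers in the labels. Deviations from group means had r of -0.11 to 0.074 in 18 pairs of the same number and -0.12 to 0.11 in 36 of different numbers. No pairing by number was seen, but these values cannot show that samples of the same number were handled apart. With the replicate block, Ccn4 changed by 3.69, Ccn2 by 2.80 and Ccn5 by 2.81 for TAC in wild type, and no call of a member changed.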
